A study of Drosophila melanogaster with 4 samples.

Results

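Small RNA pathways use short guide RNAs, bound by Argonaute proteins, to silence matching transcripts. In Drosophila, miRNAs are cut by Drosha and Dcr-1 and act with AGO1 on cellular mRNAs, siRNAs are cut by Dcr-2 and act with AGO2 against viruses and transposons in somatic tissue, and piRNAs act with the PIWI proteins Piwi, Aub and AGO3 against transposons, chiefly in the gonad. The piRNA pathway is best known from ovary and testis, where nuclear factors transcribe the piRNA source loci, proteins on the mitochondrial surface and in Yb bodies process the precursors, and proteins of the nuage, a perinuclear granule, amplify the piRNAs. The mRNA levels of 34 genes of this machinery were examined in adult heads. These genes were chosen by name from the 16680 gene rows of the expression table, and all 34 were found. By known role, 8 are siRNA and miRNA genes, 24 are piRNA genes, and 2, Hen1 and Tudor-SN, belong to both small RNA classes or to the silencing complex.

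Heads of male Kr[If-1] flies with a phenotypic variation of the eye were compared with heads of male Kr[If-1] flies without one, with 2 biological repeats in each group and 10 heads pooled in each library. Kr[If-1] is a spontaneous gain-of-function allele of Krüppel that sensitizes the eye to a loss of developmental robustness, and the stock named in the study's methods also carries the black allele b1. In both groups the flies were F1 progeny of parents fed Cr(VI), given as potassium dichromate at 10 µM, so that all 4 libraries share the allele and the parental exposure and no unexposed group was measured. The labels call the repeats biological but do not say whether they came from separate crosses, so that p-values measure the spread between these libraries only.

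The values were FPKM, read fragments scaled to transcript length and to the mapped reads of the library, which permits levels to be compared between genes. In bulk heads, fewer cells of a type and less RNA per cell cannot be told apart. The number of reads is unknown, but the lowest values above 0 of short transcripts placed 1 read on 1000 bp of transcript at 0.0179 to 0.0207 FPKM across the libraries, which were thus of like depth. Of 8 photoreceptor markers the highest was ninaE, the main rhodopsin, at 948 and 665 FPKM in heads with phenotype and 773 and 543.5 FPKM in heads without. The lowest was Rh4, at 3.59 and 2.36 FPKM with phenotype and 2.32 and 1.89 FPKM without. Of the 8, 2 had both libraries with phenotype above both without (Rh4, and Rh6 at 104 and 82.8 against 67.7 and 58.6 FPKM) and 0 had both below. ninaC and inaD leaned lower with phenotype. Of 4 neuron markers 3 lay above and 0 below, and of 4 glia markers 2 lay above (repo and wrapper) and 2 below (nrv2 and alrm). Of all genes averaging 1 FPKM or more, 41.3% lay above and 18.3% below. The series' design text names ovaries as well as heads. Of 6 follicle cell markers of the ovary, 5 were at 0 to 0.44 FPKM and Yp1 was at 1.18 to 2.38 FPKM. Among 9 germline markers, 6 (nos, osk, bam, bgcn, otu and pgc) were at 0 to 0.26 FPKM in all libraries. The other germline markers, ovo, orb and gcl, were at 2.78 to 19.1 FPKM, and of 9 testis markers 8 were at 0 to 0.46 FPKM and bol was at 51.8 to 55.0 FPKM. Digestive transcripts differed between libraries, with 6 midgut markers summing to 36.6 and 160 FPKM in heads with phenotype and to 204.7 and 0.38 FPKM in heads without, and their part in the results below was not tested.

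The siRNA and miRNA genes were expressed well above most piRNA genes in every library. Their median was 15.8 and 15.4 FPKM in heads with phenotype and 14.8 and 15.4 FPKM in heads without, whereas the median of the 24 piRNA genes was 0.755 and 0.845 FPKM with phenotype and 0.745 and 0.72 FPKM without. On log2(FPKM + 1) the medians of the classes lay apart by 3.25 and 3.12 with phenotype and by 3.17 and 3.26 without. The distance thus varied between repeats of a condition by as much as between conditions. The median of all 16680 gene rows, 4.08 to 4.30 FPKM, lay between the classes. All 8 siRNA and miRNA genes were at 1 FPKM or more in all libraries, against 10 of the 24 piRNA genes in each library with phenotype and 11 in each library without. The gene that made this difference was spn-E. At a level of 0.5 FPKM the order turned, with 16 piRNA genes in each library with phenotype and 14 in each library without. Genes are not replicates, so that no test was made between the classes.

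**Figure D1:**
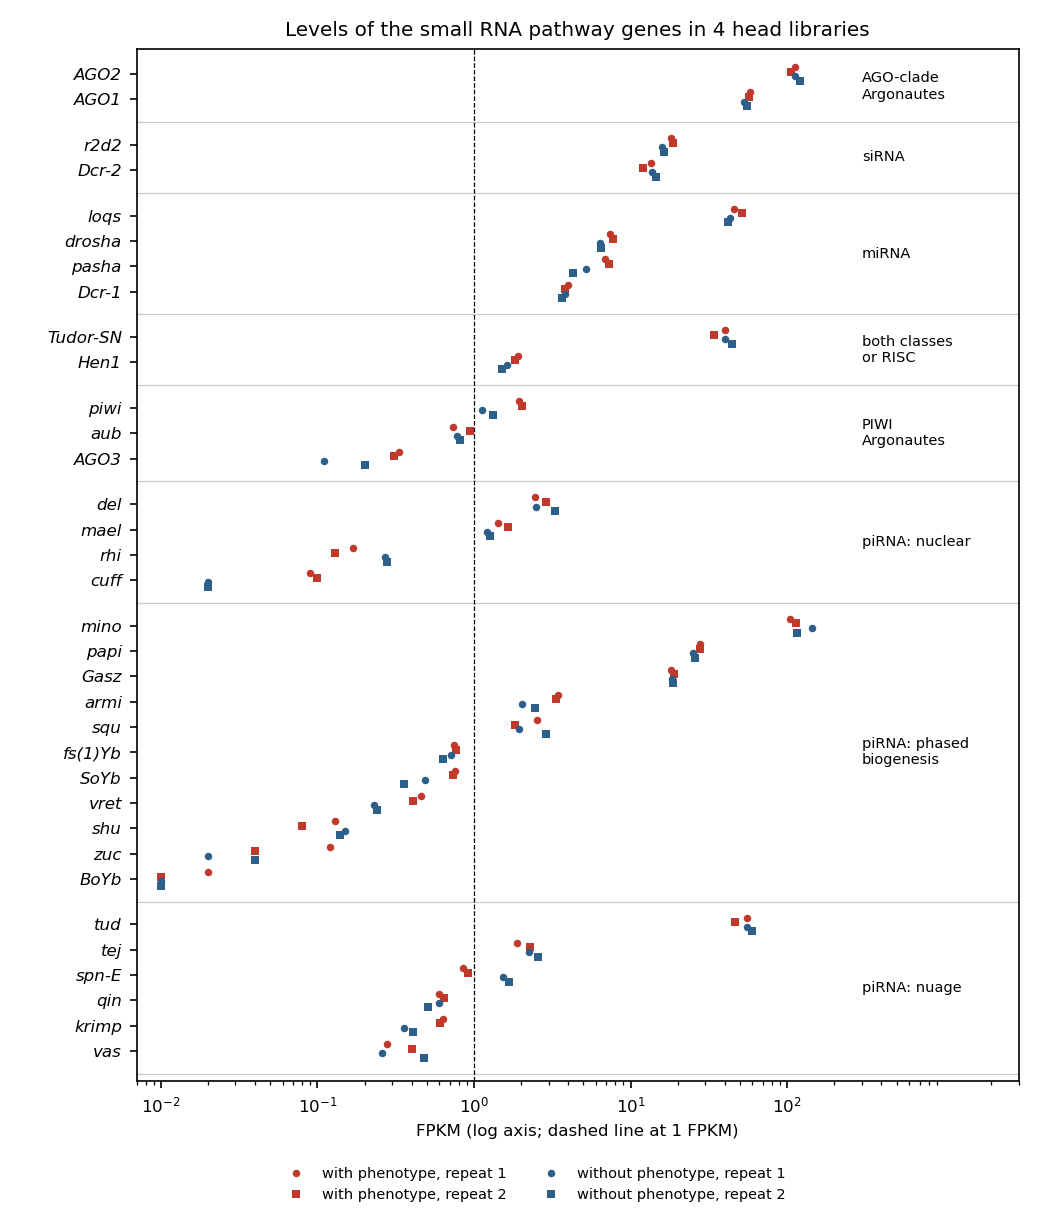
FPKM (log axis) of all 34 genes in the 4 head libraries, grouped by role and ordered by mean within a role. Red marks are libraries with phenotype and blue marks libraries without, circles are repeat 1 and squares repeat 2. Every siRNA and miRNA gene lies right of the line at 1 FPKM, while piRNA genes spread over 4 orders of magnitude, from BoYb at 0.01 FPKM to mino at 143.5 FPKM.

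**Figure D2:**
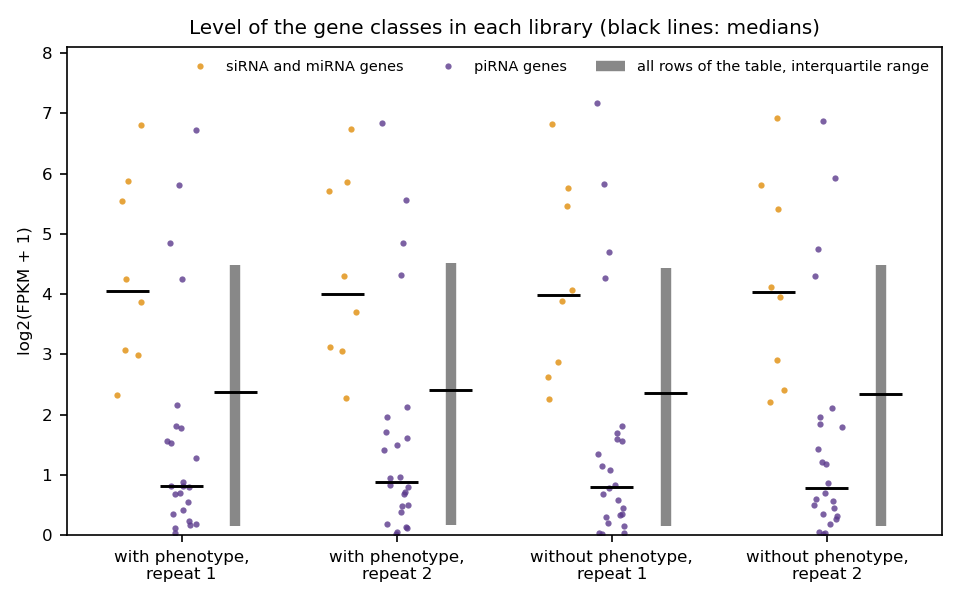
log2(FPKM + 1) of the 8 siRNA and miRNA genes (orange) and the 24 piRNA genes (purple) in each library, with black lines at the medians and grey bars over the interquartile range of all gene rows. The medians of the classes lie 3.12 to 3.26 apart in every library, and 4 piRNA genes lie apart from the others at the level of the siRNA and miRNA genes or, for mino in 2 libraries, above them.

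The Argonautes show the contrast most plainly. AGO2, the siRNA Argonaute, was at 111 and 105 FPKM with phenotype and 113 and 121 FPKM without, and AGO1, the miRNA Argonaute, was at 57.9 and 57.1 FPKM with phenotype and 53.3 and 55.2 FPKM without. Among the PIWI proteins, piwi, the nuclear member that directs transcriptional silencing, was the most abundant, at 1.95 and 2.04 FPKM with phenotype and 1.12 and 1.32 FPKM without. aub, which cleaves transposon transcripts in the cytoplasm, was at 0.73 and 0.94 FPKM with phenotype and 0.78 and 0.81 FPKM without, with overlapping groups. The exons of aub share 79 bp with TTLL4A on the other strand, listed as CG16833 at 16.6 to 20.0 FPKM. The part of shared reads in the values of aub was not tested. AGO3, the partner of aub, was lowest, at 0.33 and 0.31 FPKM with phenotype and 0.11 and 0.20 FPKM without. The order AGO2, AGO1, piwi, aub, AGO3 held in each library, and the ranges of neighbors over the 4 libraries did not overlap. In the Ensembl annotation of the dm6 assembly, piwi (2L, 10982205 to 10987420) and aub (2L, 10997819 to 11001476) lie near each other on the minus strand of the same arm. AGO3 lies on 3L from 23554593 to 23689640, AGO2 on 3L from 15554113 to 15561042 and AGO1 on 2R from 13943387 to 13958089.

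The groups were compared with limma on log2(FPKM + 1) for genes averaging 1 FPKM or more, and an adjusted p under 0.1 over all 10194 genes tested was taken as the threshold. Of the 34 genes, 21 reached this level (all 8 siRNA and miRNA genes, 11 of 24 piRNA genes, Hen1 and Tudor-SN). None of the 21 passed in either direction, while 9 of all genes tested did (0.0883%), 6 with higher FPKM with phenotype (0.0589%) and 3 with lower (0.0294%). So few genes passed in this fit that a gene not passing is not shown to be unchanged. The paper, with EBSeq on transcripts at an FDR under 0.1, called a far larger share. At an unadjusted p under 0.05 there were 5 of the 21 (23.8%), against 22.7% of all genes tested, a share near the background. The 5 were pasha, armi, piwi and drosha, with higher FPKM with phenotype, and spn-E, with lower. The fold changes of the 21 ran from -0.47 to 0.50 on the log2 scale with a median of 0.058, against a median of 0.070 over all genes tested, and 11 were above 0. This scale understates the change of genes with few FPKM.

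**Figure D3:**
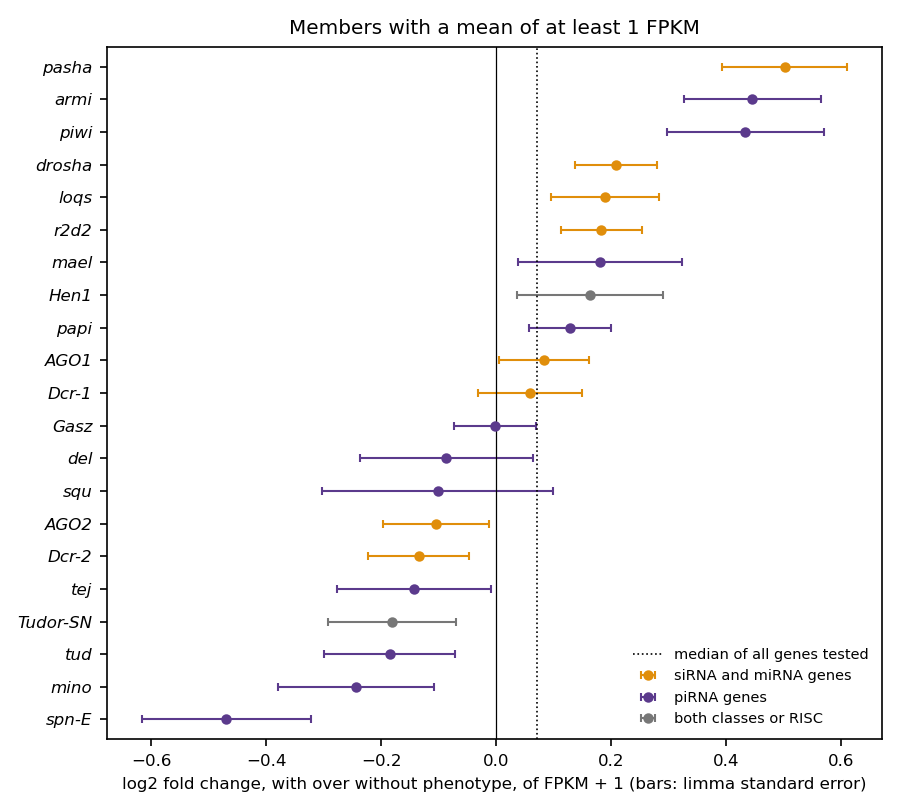
log2 fold change of FPKM + 1, with over without phenotype, of the 21 genes of at least 1 FPKM, with bars for limma's standard error over 2 libraries per group. Orange marks siRNA and miRNA genes, purple piRNA genes and grey Hen1 and Tudor-SN. The dotted line is the median of all genes tested, at 0.070. pasha lies farthest to the right at 0.50 and spn-E farthest to the left at -0.47, and none passed the threshold.

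In the miRNA branch, AGO1, drosha, pasha, Dcr-1 and loqs had higher FPKM with phenotype with no overlap between the groups, as did 41.3% of all genes tested, and after rescaling by median ratios AGO1 and Dcr-1 overlapped. The Microprocessor, which cuts primary miRNA transcripts in the nucleus, consists of the nuclease Drosha and its RNA-binding partner Pasha. pasha was at 6.90 and 7.31 FPKM with phenotype and 5.19 and 4.29 FPKM without (7.11 ± 0.290 and 4.74 ± 0.636 FPKM, SD, n = 2, with a limma log2 fold change of 0.50 ± 0.11, SE, and adjusted p = 0.15). It had the smallest p of the 21 genes, and of the alternatives run, it passed only when repeat 1 without phenotype was left out (adjusted p = 0.097 from limma, range over the alternatives 0.097 to 0.60). drosha was at 7.43 and 7.68 FPKM with phenotype and 6.36 and 6.45 FPKM without (limma log2 fold change 0.21 ± 0.072, SE, adjusted p = 0.20). Both partners were thus at like levels, and in both the repeats lay closer to each other than the groups. The exons of pasha overlap those of kek6 on the same strand by 82 bp, and kek6 was itself at 13.6 and 14.0 FPKM with phenotype and 11.2 and 11.4 FPKM without, so that reads shared between them cannot be assigned with certainty. Dcr-1, which cuts the miRNA hairpin, was at 4.01 and 3.81 FPKM with phenotype and 3.79 and 3.64 FPKM without. Its cofactor loqs, a double-stranded RNA-binding protein with an isoform that also serves Dcr-2, was at 45.7 and 51.4 FPKM with phenotype and 43.1 and 41.8 FPKM without (adjusted p = 0.30 from limma). Averaged over the 4 libraries, the FPKM of loqs was 11.9 times that of the nuclease it assists. The log2 fold change was 0.19 for loqs, and 0.058 and 0.083 for Dcr-1 and AGO1, near the median of all genes, and with libraries rescaled by median ratios that of Dcr-1 turned to -0.0082 and that of AGO1 all but vanished.

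In the siRNA branch the differences were small and ran in both directions. Dcr-2, the nuclease that makes siRNAs, was at 13.6 and 12.0 FPKM with phenotype and 13.8 and 14.5 FPKM without (log2 fold change -0.13, adjusted p = 0.40 from limma). r2d2, which loads the siRNA into AGO2 together with Dcr-2, was at 18.0 and 18.8 FPKM with phenotype and 15.8 and 16.4 FPKM without (log2 fold change 0.18, adjusted p = 0.22 from limma). AGO2 itself had a log2 fold change of -0.11 (adjusted p = 0.51 from limma). The groups did not overlap in any of these genes, but differences of this size were common, since the groups lay apart, one way or the other, in 59.5% of the genes tested. Hen1, the methyltransferase that protects the ends of siRNAs and piRNAs, was at 1.91 and 1.82 FPKM with phenotype and 1.62 and 1.50 FPKM without. Tudor-SN, a nuclease of the RNA-induced silencing complex with other roles in RNA metabolism, was at 39.9 and 34.3 FPKM with phenotype and 40.0 and 44.3 FPKM without. Neither passed (adjusted p = 0.47 and 0.38 from limma). The median log2 fold change of the 8 siRNA and miRNA genes was 0.13, and 0.052 with libraries rescaled by median ratios.

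The piRNA genes fell into a few that were abundant in heads and many at low levels, of which zuc, BoYb, cuff, shu and rhi rested on about 1 to 23 reads in each library. Above 10 FPKM were 4 of 24 in all libraries. mino, a mitochondrial glycerol-3-phosphate acyltransferase that also takes part in primary piRNA biogenesis, was at 105 and 113 FPKM with phenotype and 144 and 116 FPKM without. tud, the Tudor protein of the nuage and the germ plasm, was at 55.0 and 46.4 FPKM with phenotype and 55.7 and 59.5 FPKM without. In both genes the library at the far end, repeat 1 without phenotype for mino and repeat 2 with phenotype for tud, lay well apart from its own repeat, and neither passed (adjusted p = 0.34 and 0.38 from limma). papi, a Tudor protein on the mitochondrial surface that binds PIWI proteins, was at 27.9 and 27.7 FPKM with phenotype and 24.9 and 25.7 FPKM without. Gasz, the mitochondrial scaffold of the piRNA nuclease, was at 18.0 and 18.9 FPKM with phenotype and 18.3 and 18.7 FPKM without, with a log2 fold change of -0.0026. All but tud are thus proteins of the mitochondrial surface. By contrast zuc, the mitochondrial endonuclease that makes phased piRNAs, was at only 0.12 and 0.04 FPKM with phenotype and 0.02 and 0.04 FPKM without. These values correspond to about 7, 2, 1 and 2 reads, estimated from the length of its transcript, so that no difference was detectable at this depth. The exons of zuc share 67 bp with CG34163 on the other strand, at 6.38 to 8.54 FPKM. The part of shared reads was not tested. The annotated exons of mino overlap those of genes on the other strand, among them NSD, listed as Mes-4 at 5.07 to 6.09 FPKM, and nothing states that reads were assigned by strand.

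Between 1 and 4 FPKM were armi, del, squ, tej, piwi, mael and spn-E, and 3 of them had the smallest p of the piRNA genes. armi, the RNA helicase that feeds precursors to the nuclease Zuc, was at 3.45 and 3.34 FPKM with phenotype and 2.02 and 2.45 FPKM without (3.40 ± 0.0778 and 2.24 ± 0.304 FPKM, SD, n = 2, with a limma log2 fold change of 0.45 ± 0.12, SE, and adjusted p = 0.16). piwi, given above, averaged 2.00 ± 0.0636 FPKM with phenotype and 1.22 ± 0.141 FPKM without, 1.64-fold higher in mean FPKM (SD, n = 2, with a limma log2 fold change of 0.43 ± 0.14, SE, and adjusted p = 0.18). In these genes the libraries with phenotype lay above those without, and the gap was wider than the spread of either pair. spn-E, a helicase with a Tudor domain that is needed for the amplification of piRNAs in the nuage, was lower with phenotype, at 0.85 and 0.92 FPKM with phenotype and 1.54 and 1.68 FPKM without (limma log2 fold change -0.47 ± 0.15, SE, adjusted p = 0.18). It was 1.82-fold higher in mean FPKM in heads without phenotype. Its exons overlap no other annotated gene (3R, 15837419 to 15844415). Of the 4162 bp of exons of armi, 4145 bp are shared with CG46463 on the same strand, a gene not analysed here. In this annotation almost no read can thus be assigned with certainty to armi alone. The exons of piwi share 191 bp with SCAR on the other strand (45.1 and 45.7 FPKM with phenotype, 40.0 and 42.1 FPKM without). Leaving out a library or rescaling changed the direction of none of the 3 genes, and over all alternatives their adjusted p ran from 0.15 to 0.61.

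**Figure D4:**
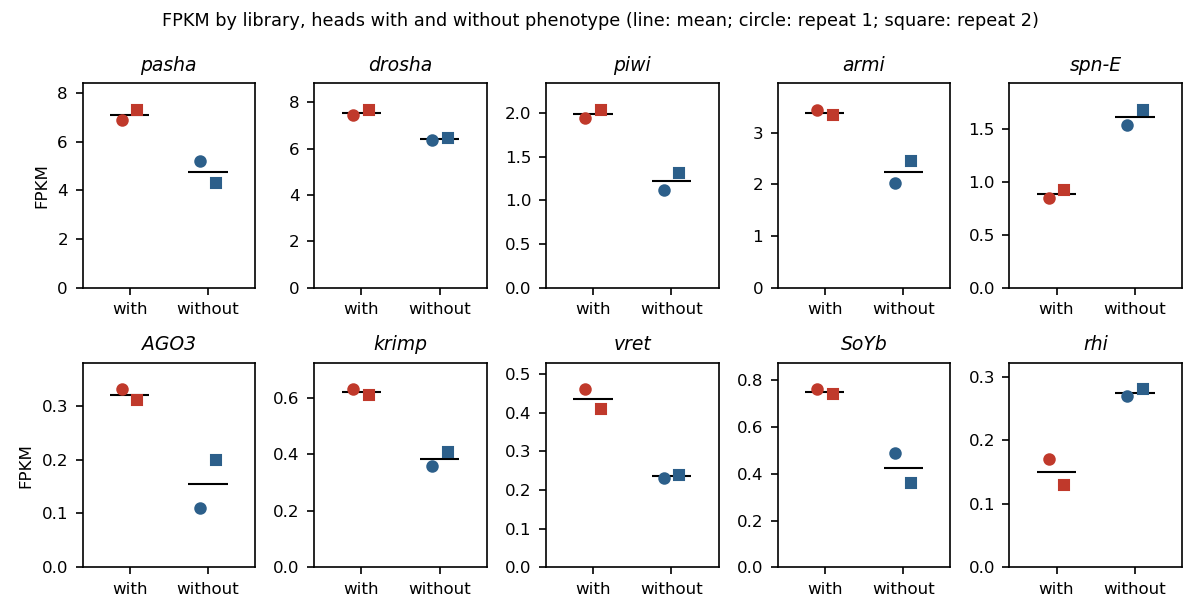
FPKM in each library of pasha and drosha, of the piRNA genes piwi, armi and spn-E, and of 5 piRNA genes under 1 FPKM, chosen after their values were seen. Each panel has its own axis from 0 FPKM, with heads with phenotype on the left (red) and heads without on the right (blue), and the line is the mean of 2 libraries. In spn-E and rhi both libraries with phenotype lie below both without, and in the other 8 genes they lie above.

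Of the remaining genes of this level, squ, del and tej overlapped between the groups, tej no longer after rescaling by median ratios, and mael did not. squ, a protein of the nuage, was at 2.51 and 1.83 FPKM with phenotype and 1.94 and 2.89 FPKM without. Its exons span 1372 bp, of which 223 bp are shared with grp on the same strand. grp was at 30.3 and 37.0 FPKM with phenotype and 26.1 and 29.1 FPKM without, far above squ. Reads shared between them cannot be assigned with certainty, so that the level of squ itself is uncertain. del, part of the complex that licenses transcription of piRNA clusters, was at 2.44 and 2.87 FPKM with phenotype and 2.50 and 3.29 FPKM without. tej, a Tudor protein of the nuage, was at 1.89 and 2.28 FPKM with phenotype and 2.24 and 2.57 FPKM without. mael, a factor of transcriptional silencing downstream of Piwi, was at 1.43 and 1.65 FPKM with phenotype and 1.21 and 1.27 FPKM without (adjusted p = 0.47 from limma). Its exons share 247 bp with CG14451 and CG14450 on the other strand, at 0.26 to 0.40 and 9.27 to 10.6 FPKM. The part of shared reads in the values of mael was not tested. The 11 piRNA genes tested had a median log2 fold change of -0.087, with 4 above 0 and 7 below. The median was 0.045 when all 24 were fitted with no filter on level.

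The 13 genes with a mean under 1 FPKM, all of them piRNA genes, were not tested with the filter. Of these, 6 had both libraries with phenotype above both without, and 2 had both below. Of the 5314 genes of the table in this range 19.3% lay above and 12.2% below. Since many of those are close to 0, the range from 0.1 to 1 FPKM is a nearer comparison, in which 5 of 10 members lay above and 2 below, against 26.5% and 15.4% of 2656 genes. With 2 libraries against 2, an exact permutation test cannot give a two-sided p under 0.333. In the fit with no filter none of the 34 genes passed (0 at an adjusted p under 0.1 from limma, where 3 of 15508 genes passed, 0.0193%). At an unadjusted p under 0.05 from limma were 11 (32.4%, against 17.3% of all genes in that fit), 9 with higher and 2 with lower FPKM with phenotype, where 12.1% and 5.15% of all genes were. Many genes of that fit are close to 0 and can hardly differ on this scale, and no share for genes of like level was computed, so that an excess of these genes is not shown. With the filter the shares were 23.8% of the 21 genes and 22.7% of all genes tested.

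In the Yb body, where the soma of the ovary processes its piRNA precursors, the Tudor protein genes vret and SoYb were higher with phenotype in both repeats. vret was at 0.46 and 0.41 FPKM with phenotype and 0.23 and 0.24 FPKM without, 1.85-fold higher in mean FPKM, and SoYb was at 0.76 and 0.74 FPKM with phenotype and 0.49 and 0.36 FPKM without, 1.76-fold higher. The exons of vret share 128 bp with CG6985 on the other strand, which was itself at 2.4 and 1.91 FPKM with phenotype and 1.6 and 1.28 FPKM without, and the part of shared reads in the values of vret was not tested. fs(1)Yb, the founding member, was nearly level, at 0.75 and 0.77 FPKM with phenotype and 0.71 and 0.63 FPKM without, and its groups overlapped after rescaling by median ratios. BoYb, expressed in the germline, was at 0.01 to 0.02 FPKM in all libraries, worth about 2 to 4 reads. vret, though itself low, lies near Dcr-1 on 3R, at 22742954 to 22745581 against 22734007 to 22741091. shu, a cochaperone that helps load PIWI proteins, was at 0.13 and 0.08 FPKM with phenotype and 0.15 and 0.14 FPKM without.

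Of the nuage genes in this range, krimp, a Tudor protein that assembles the nuage and binds AGO3, was at 0.63 and 0.61 FPKM with phenotype and 0.36 and 0.41 FPKM without. It was 1.61-fold higher in mean FPKM, and AGO3 was 2.06-fold higher. The mRNA of AGO3 corresponded to about 51 and 48 reads with phenotype and 17 and 31 reads without. vas, the DEAD-box helicase that marks the germline, was at 0.28 and 0.40 FPKM with phenotype and 0.26 and 0.48 FPKM without, and qin, a Tudor and RING domain protein of the nuage, was at 0.60 and 0.64 FPKM with phenotype and 0.60 and 0.51 FPKM without. In these genes the groups overlapped or touched. Reads from the 563 bp of exons that vas shares with solo cannot be assigned with certainty.

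Of the nuclear factors of cluster transcription, rhi and cuff were among the genes closest to 0. rhi, the HP1 protein that marks dual-strand piRNA clusters, was at 0.17 and 0.13 FPKM with phenotype and 0.27 and 0.28 FPKM without, 1.83-fold higher in heads without phenotype. cuff, which binds beside it and suppresses termination of cluster transcripts, was at 0.09 and 0.10 FPKM with phenotype and 0.02 FPKM in both libraries without. The values of these partners thus lay in opposite directions, and those of del, the third of the complex, overlapped between the groups. These values rest on few reads, about 14 and 11 with phenotype and 22 and 23 without for rhi and about 6 and 7 with phenotype and 1 and 1 without for cuff. The exons of cuff share 36 bp with ERp60 on the other strand, at 154 and 143 FPKM with phenotype and 140 and 138 FPKM without, and the part of shared reads in so low a gene was not tested. In the fit with no filter their adjusted p was 0.26 for both from limma, and for AGO3, krimp, vret and SoYb it was 0.26, 0.25, 0.24 and 0.25 from limma.

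Beyond the 34 genes, 33 of 35 other genes of these pathways were found in the table, and 30 were tested. None passed in either direction (0 at an adjusted p under 0.1 from limma). At an unadjusted p under 0.05 from limma were 8 of the 30, all with higher FPKM with phenotype, against 16.0% of all genes tested with higher and 6.67% with lower FPKM. This list was chosen with earlier results of these data known, and it includes the chaperone gene Hsp83 and the cochaperone gene Hop. Its genes were not examined after rescaling by median ratios, so that no excess is claimed for them. The smallest p were those of Hop, egg and Hsp83. The cochaperone gene Hop, whose product acts with Hsp83 and Piwi, was at 31.6 and 27.9 FPKM with phenotype and 18.6 and 19.3 FPKM without (limma log2 fold change 0.62 ± 0.092, SE, adjusted p = 0.12). egg, the histone H3K9 methyltransferase that acts in silencing directed by Piwi, was at 8.17 and 8.07 FPKM with phenotype and 6.11 and 5.82 FPKM without (limma log2 fold change 0.39 ± 0.073, SE, adjusted p = 0.14). Hsp83 had a limma log2 fold change of 0.88 ± 0.17 (SE, adjusted p = 0.14). The repeats lay closer to each other than the groups in all 3 genes. panx, which links Piwi to the silencing machinery on chromatin, was nearly level at 4.17 and 4.16 FPKM with phenotype and 4.37 and 4.34 FPKM without.

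The directions of many small differences depended on how libraries were scaled. Of the 21 genes tested, 11 had no overlap with higher and 6 with lower FPKM with phenotype, where 41.3% and 18.3% of all genes tested did. After rescaling by median ratios the split was 9 higher and 8 lower, against 29.0% and 29.4% of all genes tested. pasha, armi, piwi, drosha and spn-E kept their direction and their lack of overlap after rescaling. Of the 13 genes under 1 FPKM, 5 still lay above (AGO3, krimp, vret, SoYb and cuff) and 2 below (rhi and shu). The share of all genes under 1 FPKM that lay apart after rescaling was not computed, so that these counts have no background beside them.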

How the data were processed

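Heads of F1 flies were measured by mRNA-seq of polyA-selected RNA in 4 libraries. The authors aligned single-end reads of 50 cycles to RefSeq mRNAs (dm6) with Bowtie 2 and deposited FPKM per gene from RSEM, to 2 decimals. Besides dm6, dm3 appears in the submitters' processing notes, and no tool version is stated. The total depth is unknown, no count test was used, and no counting interval was computed. Numbers of reads are estimates from the lowest FPKM above 0 of genes with 1 transcript of 300 to 700 bp (percentile 1) and the longest annotated transcript. They ignore the effective length.

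The 34 genes and the gene lists were chosen with earlier results of these data known. Named are the Argonautes, the 3 highest and lowest genes of each class, and the 5 with the smallest p and the largest change. Others were named after their values were seen. The test was that of limma 3.58.1 (R 4.3.3, two-sided, with a mean-variance trend) on log2(FPKM + 1), for genes averaging 1 FPKM or more, and p was adjusted by Benjamini-Hochberg. The paper's EBSeq could not be run on FPKM. The fit was tested on simulated data. Python 3.11.15 and pandas 2.3.3 made the tables. Alternatives were other pseudocounts, filters, scaling, thresholds, no trend, a replicate block and leaving out each library.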

Additional observations from a re-analysis of the deposited data

How the results depend on the processing

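Of the 34 genes, 34 were fitted with no filter, 12 with a filter of 5 FPKM and 21 under every other setting. None of those fitted passed with pseudocounts of 0.1 or 5, no filter, a filter of 5 FPKM, median-ratio scaling, no trend, a threshold of 0.05, or a replicate block, and leaving out a library gave 0 to 1 higher (pasha, without repeat 1 without phenotype) and 0 to 0 lower. Over all genes, the count of 9 was 23 with a pseudocount of 0.1, 3 with no filter, 109 with a filter of 5 FPKM, 4 with median-ratio scaling, 5 with no trend and 4 at a threshold of 0.05, and ran from 0 to 509 with a library left out (0 without either library with phenotype, 509 without repeat 1 and 142 without repeat 2 without phenotype), where the lone library is assumed to vary like the others. The cause was not tested.

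With a replicate block 0 of all genes passed (2070 at an unadjusted p under 0.05 from limma). The deviations of same-numbered libraries from their group means had a correlation of -0.13 across genes, and the numbers are not taken as pairs. Genes of the same 4 libraries vary together, so that this value cannot show whether same-numbered libraries shared a cross or a batch. A block with crossed pairing, added after the data were seen, called 404 genes and none of the 21 fitted.

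The median log2 fold change of the siRNA and miRNA genes was 0.11 with a pseudocount of 5, 0.18 with a filter of 5 FPKM, 0.052 with median-ratio scaling and 0.099 to 0.14 with a library left out. That of the piRNA genes was 0.045 with no filter, -0.15 with median-ratio scaling and ran from -0.092 to 0.060 with a library left out. Of 243 alternative values for single genes, 236 kept their direction and their side of the threshold. The fold change of Dcr-1 turned to -0.0082 with median-ratio scaling. With a library left out, that of squ ran from -0.30 to 0.10, that of del from -0.23 to 0.060 and that of Gasz from -0.037 to 0.032, each above 0 without repeat 2 without phenotype, squ also without repeat 2 and Gasz without repeat 1 with phenotype.

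The distance of the class medians in repeats 1 and 2 with phenotype and repeats 1 and 2 without was 2.74, 2.73, 2.68 and 2.63 with means, 4.20, 4.01, 4.14 and 4.25 with a pseudocount of 0.1, and 3.43 and 3.36 with phenotype when Hen1 and Tudor-SN were added to the classes. At 0.5 FPKM or more were 16 piRNA genes in each library with phenotype and 14 in each without, and at 2 FPKM or more 7 and 8 in repeats 1 and 2 of either group.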
